A study of Mus musculus with 16 samples.

Results

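The genes described here encode the proteins of the mitochondrial ribosome. They were chosen by name: every gene of the expression table whose symbol begins with Mrpl (large subunit) or Mrps (small subunit) followed by a digit. The table of 18138 genes held 72 such genes, 44 Mrpl and 28 Mrps. Of these, 65 (38 Mrpl and 27 Mrps) lay above background on all 16 arrays and were tested. The other 7, Mrpl19, Mrpl21, Mrpl32, Mrpl39, Mrpl45, Mrpl51 and Mrps14, were above background on none, so the filter on dim genes removed no gene that was on in some groups and off in others.

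Mitochondria keep a small genome of their own, and a dedicated ribosome inside the organelle translates its messages into core subunits of the respiratory chain and of ATP synthase. All protein parts of that ribosome are encoded in the nucleus, made in the cytosol and imported, where they join mitochondrial rRNA in a large subunit, which forms the peptide bonds, and a small subunit, which reads the mRNA. Some of the proteins descend from those of bacterial ribosomes and others were added during the evolution of mitochondria. T cells that are activated through their antigen receptor enlarge their mitochondria as they prepare to divide. Akt is a kinase that acts below the antigen receptor and CD28, and Akti1/2 is an allosteric inhibitor of its isoforms Akt1 and Akt2.

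RNA came from D10 cells, a fast-growing variant of 1 mouse Th2 clone, so that all groups share 1 genotype and were kept in medium with serum and IL-2. Control cells received no Akti1/2, and the treated cells were given Akti1/2 at 10 μM for 1 h beforehand; both were then stimulated with biotinylated antibodies to CD3 and CD28 plus streptavidin for 0, 2, 6 or 12 h. Each of the 8 groups had 2 Illumina MouseRefSeq8 arrays, and nothing states that the pair came from separate cultures, so p-values measure the spread between arrays, which may be technical. The sources call the control cells untreated in one place and solvent-treated in another.

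Between 6288 and 6907 genes were detected per array, and replicate arrays correlated at 0.986 to 0.994 across genes. Of the 6 T cell markers on the array, 4 were detected on all arrays. So were 5 of 6 Th2 markers, Gata3 and Il4 among them. Cd4 was detected on 13 arrays, at raw intensities of 144 to 217 over all arrays. The mean of the negative controls was 111 to 139 per array. Thy1 and Ccr4 were detected on none. Markers of CD8 T cells, myeloid cells, fibroblasts and NK cells were detected on no array, and of 3 B cell markers 1, Ms4a1, was detected on 1 array. The mean raw intensity of an array ranged from 394 to 544, and both arrays of treated cells at 2 h (414 and 394) lay below all others; what this contributed to the 2 h values was not tested. All levels below are log2 intensities after background correction and quantile normalization, which fixes each array's overall distribution, so they are relative levels within an array. A lower level in every cell and a loss of the message from some of the cells cannot be told apart in RNA from a whole culture.

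The promoters of a few members are shown first, and whether they bear on the changes in the results that follow was not tested. RefSeq windows (GRCm38.p6, from 250 bases before to 50 bases after the start) were matched for 63 of the 72 genes. Motifs known from promoters of mitochondrial and growth genes were searched on both strands: CCGGAAG, the core bound by ETS factors such as GABP (NRF-2); the 10-base palindrome bound by NRF-1; and CACGTG, the E-box bound by MYC. Of the 57 tested members with a window, 22 held the ETS core (38.6%), against 23.7% of the 5491 tested genes with a window. The E-box stood in 5 of 57 (8.77%, against 12.2%) and the NRF-1 motif in 1 of 57 (1.75%, against 2.40%). Over all 63 matched members the shares were 38.1%, 7.94% and 4.76%, against 9.93%, 8.09% and 1.07% of all 27025 genes of the promoter table. The first 5 sequences below belong to members whose response to stimulation was lower with Akti1/2 at 12 h, Mrpl34 among them chosen for its motif; Mrpl43, also chosen for its motif, was not called, and Mrpl9 moved the opposite way. Each is the 150 bases before the start, 5′ to 3′ on the strand of the gene, with a motif in capitals (for NRF-1, the inner 6 of its 10 bases).
Mrpl55, chr11:59202336-59202485, plus strand: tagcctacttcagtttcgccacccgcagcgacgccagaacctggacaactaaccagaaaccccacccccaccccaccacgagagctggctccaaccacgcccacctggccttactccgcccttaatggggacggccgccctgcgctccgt
Mrps15, chr4:126046778-126046927, plus strand: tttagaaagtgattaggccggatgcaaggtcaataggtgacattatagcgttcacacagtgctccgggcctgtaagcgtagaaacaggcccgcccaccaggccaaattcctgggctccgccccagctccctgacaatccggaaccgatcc
Mrpl18, chr17:12916092-12916241, minus strand: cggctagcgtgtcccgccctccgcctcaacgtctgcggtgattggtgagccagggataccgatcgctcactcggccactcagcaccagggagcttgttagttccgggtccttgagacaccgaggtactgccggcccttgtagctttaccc
Mrpl20, chr4:155802728-155802877, plus strand: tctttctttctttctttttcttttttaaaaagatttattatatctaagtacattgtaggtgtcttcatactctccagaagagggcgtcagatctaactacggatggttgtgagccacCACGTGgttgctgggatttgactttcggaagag
Mrpl34, chr8:71464776-71464925, plus strand: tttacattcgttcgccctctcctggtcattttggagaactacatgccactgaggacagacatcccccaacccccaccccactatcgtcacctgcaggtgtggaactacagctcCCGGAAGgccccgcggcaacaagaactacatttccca
Mrpl43, chr19:45006443-45006592, minus strand: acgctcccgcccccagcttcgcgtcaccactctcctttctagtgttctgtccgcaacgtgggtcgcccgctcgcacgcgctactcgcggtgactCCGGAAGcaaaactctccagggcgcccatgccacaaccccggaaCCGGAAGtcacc
Mrpl9, chr3:94443186-94443335, plus strand: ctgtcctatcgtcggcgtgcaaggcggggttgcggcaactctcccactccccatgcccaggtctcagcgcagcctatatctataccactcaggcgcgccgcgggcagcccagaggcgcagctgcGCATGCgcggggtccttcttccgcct
Mrpl55 and Mrps15 show none of these letters in the stretch printed, Mrpl18 has 1 ETS core further upstream (240 bases before the start), and Mrpl20 has 1 E-box at 33 bases. Mrpl34 and Mrpl43 carry the ETS core close to the start, at 37 bases in Mrpl34 and at 56 and 12 in Mrpl43, and Mrpl9 has the NRF-1 motif at 28 bases. Among the 57 tested members with a window, the ETS core stood in 7 of the 30 with a lower response at 12 h (23.3%) and in 15 of the other 27 (55.6%). These shares are a description of short letter strings in short windows, and no test was run on them.

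In control cells the number of members called higher after CD3/CD28 stimulation grew from 1 at 2 h to 13 at 6 h and 19 of 65 at 12 h. At 2 h the only member called (limma, adjusted p under 0.05 over the 7395 genes tested) was Mrpl54, a large-subunit protein without a bacterial counterpart, when 4.42% of all tested genes were called higher and 5.86% lower (10.3% together). At 6 h, 13 of 65 members were called and all 13 were higher, when 12.1% of all tested genes were called higher and 15.4% lower (27.5% together). At 12 h, 19 members were higher and 1 lower, against 12.7% and 15.1% of all tested genes (27.8% together), and the median change of the members was 0.21 on the log2 scale against -0.012 for all tested genes. Of the members, 10 were called higher at both 6 and 12 h. Both comparisons share the control 0 h arrays, and this overlap was not counted over all tested genes.

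Mrpl54 stood at 10.61 and 10.76 in control cells at 0 h and at 11.20 and 11.18 at 2 h. Both stimulated arrays were above both unstimulated ones, and the change was 0.51 (SE 0.12, limma, adjusted p = 0.016). At 12 h its level was back at 10.81 and 10.79. The 2 h call was lost without the first control 0 h array (adjusted p = 0.138), without the first (0.0749) or the second (0.0788) control 2 h array, and in a fit of only the groups compared (0.0595).

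The members that rose most at 6 h were Mrpl50, Mrps7 and Mrpl47. Mrpl50, a large-subunit protein added in mitochondria, was measured at 9.65 and 9.67 at 0 h, 9.85 and 9.92 at 2 h, 10.41 and 10.35 at 6 h, then 10.26 and 10.37 by 12 h. It had already reached its control maximum at 6 h, 0.72 above 0 h (SE 0.10, limma, adjusted p = 0.00024). Mrpl47, the counterpart of the bacterial protein L29 near the exit of the peptide tunnel, went from 8.39 and 8.19 at 0 h to 9.02 and 8.78 at 6 h, then 9.13 and 9.03 by 12 h, a rise of 0.79 by 12 h (SE 0.13, limma, adjusted p = 0.00064). Mrps7, which binds the rRNA of the small-subunit head, went from 9.57 and 9.26 to 10.27 and 9.89 at 6 h, a rise of 0.67 (SE 0.18, limma, adjusted p = 0.017) that was not called without the second control 0 h array (0.139) or the first control 6 h array (0.149).

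At 12 h the top of the list was shared between the subunits, by Mrpl35, Mrps6 and Mrpl47. Mrpl35, counterpart of bacterial L35, stood at 7.002 and 6.74 at 0 h, 7.60 and 7.27 at 6 h, then 7.61 and 7.75 by 12 h. The rise to 12 h was 0.81 (SE 0.17, limma, adjusted p = 0.0034), a 1.75-fold change. Mrps6, counterpart of bacterial S6, climbed at each step, from 9.24 and 9.13 through 9.27 and 9.55, then 9.72 and 9.65, to 9.93 and 10.06, and its 12 h rise was 0.81 (SE 0.14, limma, adjusted p = 0.0010). In both genes the control arrays at 12 h lay above all control arrays at 0 h and 2 h.

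Mrpl33 was the single member called lower in control cells. It was at 12.28 and 12.34 at 0 h and at 11.91 and 12.06 at 12 h, a change of -0.32 (SE 0.10, limma, adjusted p = 0.025). In Akti1/2-treated cells it also fell, by 0.35, and the difference between the changes was -0.03 (SE 0.14, limma, adjusted p = 0.89). The control call was lost without the first (0.0765) or second (0.13) control 0 h array, without the first control 12 h array (0.187), in a fit of only the groups compared (0.0712) and with arrays scaled to the same mean (0.123).

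The control counts rest on few arrays. For these and the later counts with an array left out, the matching counts over all tested genes are not given. Whether the members lost more calls than other genes was not tested. The 13 calls at 6 h became 5 or 4 without the first or second control 0 h array and 3 or 7 without the first or second control 6 h array, and the 20 calls at 12 h became 7 or 9 without the first or second control 0 h array and 9 without either control 12 h array.

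**Figure D1:**
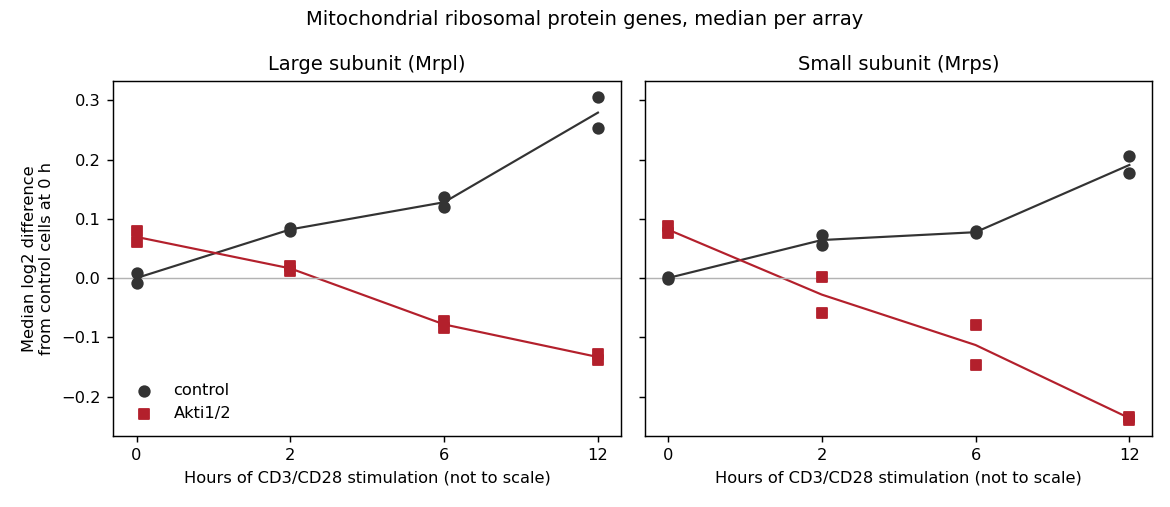
Median log2 difference from the mean of control cells at 0 h over the 38 Mrpl genes (left) and 27 Mrps genes (right), for each of the 16 arrays, against hours of CD3/CD28 stimulation (evenly spaced, not to scale). Black circles are control arrays, red squares Akti1/2 arrays, and lines join the means of 2; control medians climb to 12 h in both panels while Akti1/2 medians end below 0.

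The per-array medians set the conditions apart in opposite directions before and after stimulation. Relative to control cells at 0 h, the median over the 65 members was 0.073 and 0.079 on the control arrays at 2 h, 0.099 on both at 6 h, and 0.19 and 0.22 at 12 h. On the Akti1/2 arrays it was 0.084 and 0.070 at 0 h, 0.0053 and -0.020 at 2 h, -0.088 and -0.083 at 6 h, then -0.20 and -0.18 by 12 h. From 2 h on, both treated arrays lay below both control arrays of the same time, and replicate arrays differed with an SD of 0.012. The plot of medians by array shows the same separation for each subunit.

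In cells stimulated under Akti1/2, members were called in both directions at 2 h, and most of the later calls were lower. Against treated cells at 0 h, 10 members were called higher and 15 lower at 2 h, next to 17.8% and 20.9% of all tested genes (38.6% together). By 6 h it was 1 higher and 17 lower (all tested genes, 15.4% and 17.9%, 33.3% together), and by 12 h 2 higher and 25 lower (21.1% and 23.4%, 44.5% together). The members' median change went from -0.10 to -0.14 and -0.19. In treated cells and not in control cells, 9 members were called higher at 2 h (13.8%, against 14.6% of all tested genes). They were Mrpl9, Mrpl24, Mrpl27, Mrpl47, Mrpl52, Mrps7, Mrps15, Mrps18c and Mrps35. Another 15 were called lower at that time in treated cells only (23.1%, against 17.0%). The 25 calls at 2 h became 12 or 10 without the first or second treated 0 h array and 16 or 13 without the first or second treated 2 h array, and the 18 calls at 6 h became 10 or 11 without the first or second treated 0 h array.

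Before stimulation no single member was called between treated and control cells, but the median over the members was slightly higher with Akti1/2. By limma the count was 0 of 65, when 0.0541% of all tested genes were (0.0406% higher and 0.0135% lower), and 1 member had an unadjusted p under 0.05. The median difference was 0.070, against -0.0021 for all tested genes, with 52 members at a higher mean and 13 at a lower one. The treated array medians were 0.084 and 0.070, and the SD between replicates over all groups was 0.012. Those of the control arrays (-0.0079 and 0.0079) mirror each other because their mean is the reference, so they are no separate comparison. With arrays scaled to the same mean the median difference was 0.016, against -0.050 for all tested genes. No test was run on these medians.

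At 2 h, 12 members differed between treated and control cells, 9 lower and 3 higher, against 14.9% and 13.6% of all tested genes (28.4% together). Mrpl16, the counterpart of bacterial L16 near the centre where peptide bonds form, was measured at 9.51 and 9.23 in control cells and at 8.53 and 8.71 in treated cells. The groups did not overlap, and the difference was -0.75 (SE 0.13, limma, adjusted p = 0.0015). Mrps9, counterpart of bacterial S9, was at 10.44 and 10.30 against 9.88 and 9.69, and Mrpl38, added in mitochondria, at 10.34 and 10.28 against 9.63 and 9.77. Their differences were -0.58 (SE 0.13) and -0.61 (SE 0.14), with limma adjusted p of 0.0072 and 0.0074. The Mrps9 call was lost without the first control (0.0557) or the second treated (0.0615) 2 h array. By 12 h Mrps9 was at 10.29 and 10.28 in control and 10.27 and 10.16 in treated cells, and its difference was no longer called.

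The members that were higher with Akti1/2 at 2 h were Mrpl27, Mrpl9 and Mrpl24, all counterparts of bacterial large-subunit proteins. Mrpl27, which reaches towards the peptidyl transferase centre in bacteria, was at 8.10 and 8.26 in control and 8.45 and 8.84 in treated cells, a difference of 0.47 (SE 0.15, limma, adjusted p = 0.034). Mrpl24 differed by 0.39 (SE 0.12, limma, adjusted p = 0.029). Both calls were lost in a fit of only the groups compared (0.12 and 0.10), without the first control 2 h array (0.172 and 0.14), without the second (0.0606 and 0.0643), and without the second treated array for Mrpl27 (0.262) or the first for Mrpl24 (0.146). The call was also lost with no filter on dim genes for Mrpl27 (0.0597) and with arrays scaled to the same mean for Mrpl24 (0.129). The count of 12 fell to 4 or 6 without the first or second control array at 2 h and to 5 without the second treated one.

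At 6 h, 23 of 65 members were called lower with Akti1/2, 1 was higher and 41 were not called, against 18.7% and 18.8% of all tested genes (37.5% together). The median difference over the 65 members was -0.23, against -0.0084 for all tested genes. Mrpl50 again separated cleanly, at 10.41 and 10.35 in control and 9.47 and 9.56 in treated cells, a difference of -0.87 (SE 0.10, limma, adjusted p = 4.3e-05). Mrpl16 stood at 9.55 and 9.45 against 8.73 and 8.60, and Mrpl20, counterpart of a bacterial protein needed early in large-subunit assembly, at 10.39 and 10.01 against 9.09 and 9.42. Their differences were -0.83 (SE 0.13, limma, adjusted p = 0.00033) and -0.94 (SE 0.23, limma, adjusted p = 0.0065). The Mrpl20 call was lost without the first control 6 h array (0.0629) or the first treated 6 h array (0.0516).

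At 12 h the contrast was widest. Of 65 members, 38 were lower and 3 higher in treated than in control cells, against 24.8% and 24.2% of all tested genes (49.0% together). The median difference was -0.44, with -0.43 on 1 chip and -0.37 on the other, and it was -0.020 for all tested genes. Both subunits took part: 22 of 38 Mrpl and 16 of 27 Mrps genes were lower, with medians of -0.41 and -0.45. The count stayed between 32 and 41 when any 1 array was left out.

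**Figure D2:**
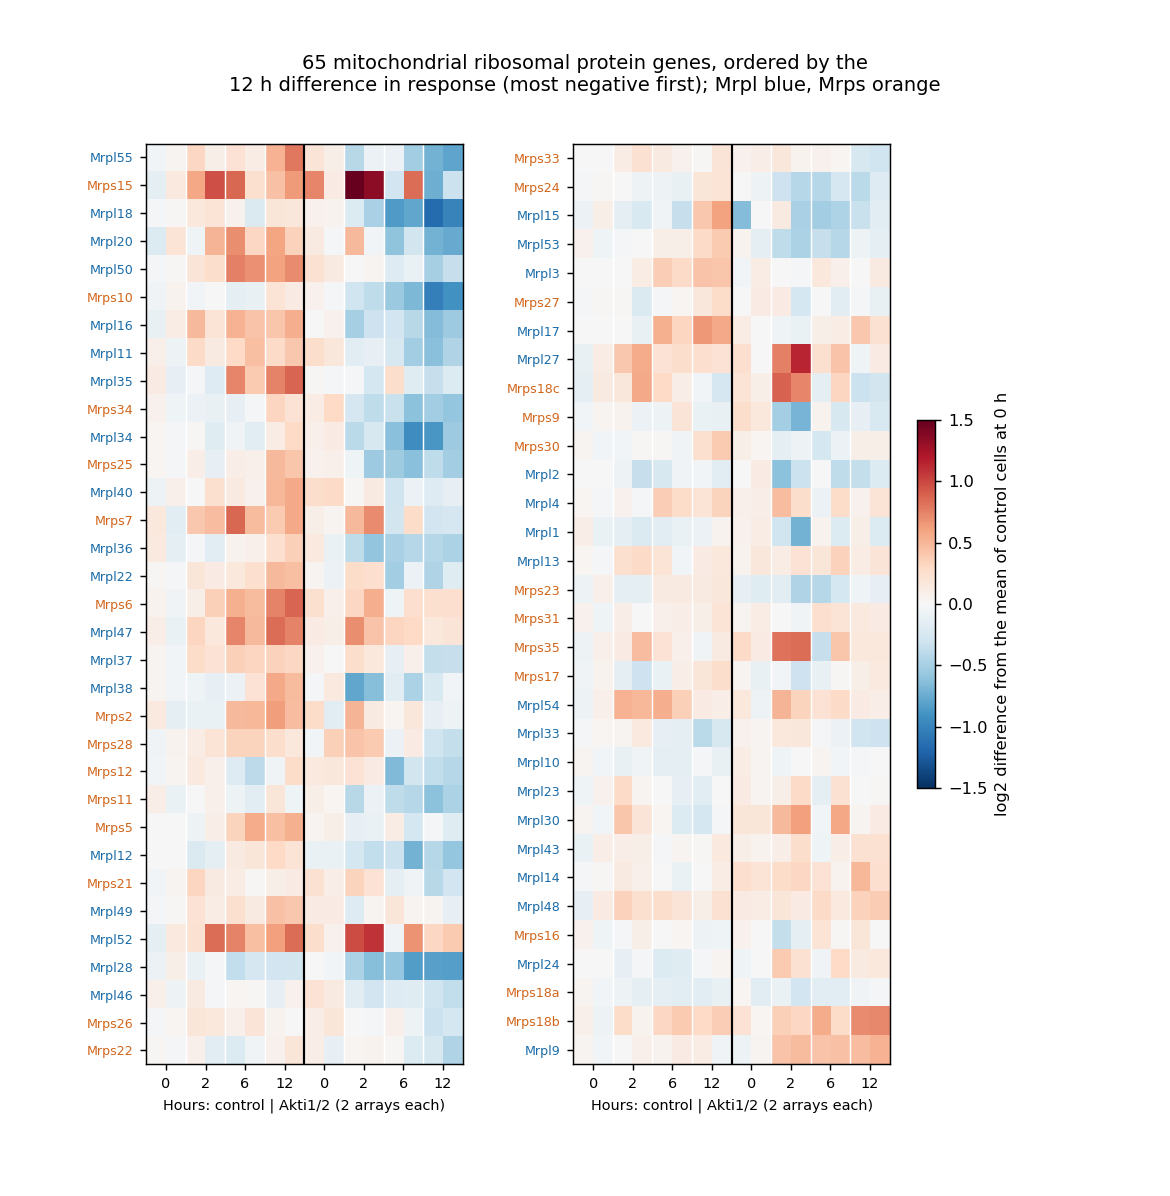
Levels of the 65 tested members on the 16 arrays, as the log2 difference from the mean of the control cells at 0 h (red higher, blue lower, colours end at 1.5). In each panel the left 8 columns are control and the right 8 Akti1/2 arrays at 0, 2, 6 and 12 h; rows run from the most negative 12 h difference in response (Mrpl55) to the most positive (Mrpl9), and the blue blocks at the right end of the first panel are the treated cells at 6 and 12 h.

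Mrpl55, which sits at the place of bacterial L31 in the large subunit, had the largest gap at 12 h. It was at 8.84 and 9.10 in control and at 7.60 and 7.52 in treated cells, so that treated cells were 2.65-fold lower (log2 difference -1.41, SE 0.16, limma, adjusted p = 1.9e-05). At 0 h the arrays stood at 8.26 and 8.36 in control and 8.50 and 8.40 in treated cells. From 0 to 12 h control cells changed by 0.66 and treated cells by -0.89.

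Mrpl18, a counterpart of bacterial L18 that in bacteria binds the 5S rRNA, came next. Control arrays hardly moved, from 8.94 and 8.98 at 0 h to 9.14 and 9.13 at 12 h. Treated arrays went from 9.03 and 9.01 through 8.76 and 8.48 at 2 h and 8.11 and 8.18 at 6 h to 7.80 and 7.96. The treated mean was lower at each later time, and at 12 h treated cells were 2.38-fold below control cells (log2 difference -1.25, SE 0.12, limma, adjusted p = 5.6e-06).

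Mrpl20 was the third, at 10.29 and 10.04 in control and 8.98 and 8.94 in treated cells at 12 h (difference -1.20, SE 0.23, limma, adjusted p = 0.00091). It was also among the noisier members, with 9.49 and 9.90 on the control arrays at 0 h and 10.18 and 9.65 on the treated arrays at 2 h. Even so, both treated arrays at 12 h lay below every control array.

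The 3 members that were higher with Akti1/2 at 12 h were Mrpl9, Mrps18b and Mrpl14. Mrpl9, counterpart of bacterial L9, was flat in control cells, between 10.05 and 10.22 on all 8 arrays, while in treated cells it stepped from 10.02 and 10.14 at 0 h to 10.53 and 10.58 at 2 h and stayed there, at 10.56 and 10.62 at 12 h. The difference at 12 h was 0.46 (SE 0.10, limma, adjusted p = 0.0022). It was called at 2 h (0.42) and 6 h (0.34) as well, but those calls were lost without the first control array of that time (0.0662 and 0.0982), without the second treated one (0.0548 and 0.0544) and in a fit of only the groups compared (0.0743 and 0.13). Mrps18b, 1 of the 3 mitochondrial relatives of bacterial S18, went in control cells from 10.22 and 10.06 to 10.44 and 10.51 and in treated cells from 10.37 and 10.17 to 10.85 and 10.86. The gap of 0.38 (SE 0.12, limma, adjusted p = 0.024) was lost without any 1 of the 4 arrays compared, the first (0.113) or second (0.0617) control or the first (0.0798) or second (0.0845) treated, and with arrays scaled to the same mean (0.0909). Mrpl14 differed by 0.32 (SE 0.11, limma, adjusted p = 0.030), and its call was lost without the first control (0.158), the second control (0.0556) or the first treated (0.248) 12 h array, in a fit of only the groups compared (0.0873) and with arrays scaled to the same mean (0.0951).

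The difference in response, taken as the log2 change since 0 h in treated cells less that in control cells, widened with time. It uses the same arrays as the comparisons above, so it is not separate evidence for them. At 2 h, 2 of 65 members were called, both lower, against 4.16% of all tested genes lower and 4.25% higher (8.41% together). At 6 h there were 12, all lower, against 9.24% lower and 10.3% higher (19.5% together), and at 12 h 33 lower and 1 higher, against 16.2% and 16.3% of all tested genes (32.5% together). The members' median went from -0.10 at 2 h to -0.34 at 6 h and -0.45 at 12 h, while that of all tested genes lay at -0.014, -0.0079 and -0.021. All 12 members called lower at 6 h were called lower at 12 h too. Both times are set against the same 0 h arrays, so this overlap is in part built in. It was not counted over all tested genes. The 6 h count became 6 or 7 without the first or second control 6 h array and 7 without any 1 of the 4 arrays at 0 h, and the 12 h count stayed between 23 and 36 whichever array was left out.

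**Figure D3:**
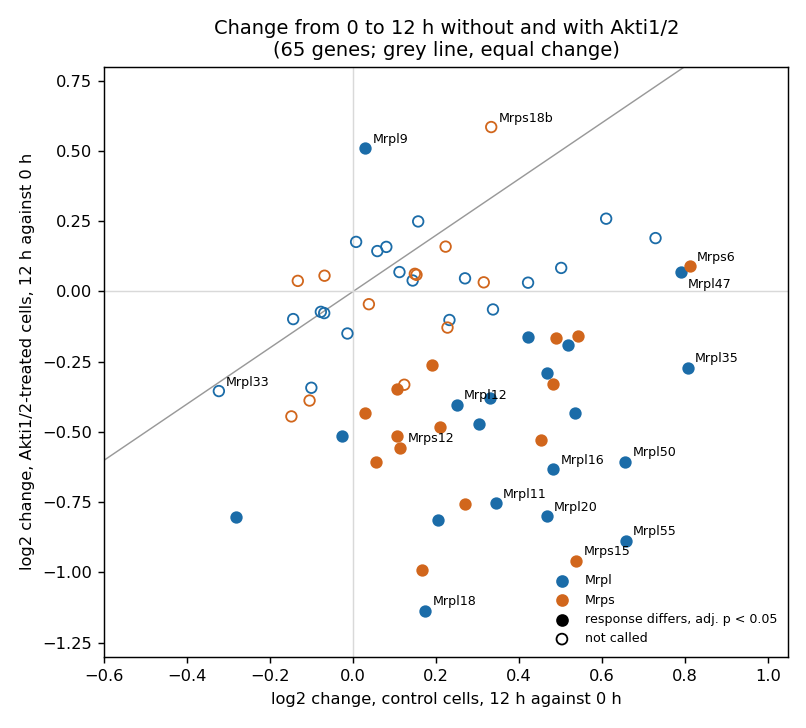
Change from 0 to 12 h in control cells (horizontal) and in Akti1/2-treated cells (vertical), both as log2 change, for the 65 tested members; blue points are Mrpl, orange Mrps, filled points have a difference in response called at adjusted p under 0.05, and the grey line marks equal change. Most points lie to the right of 0 and below the line, and Mrpl9 is the only filled point above it.

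Splitting the members by their changes over 12 h gives several patterns. In all, 6 members were called higher in control and lower in treated cells: Mrpl16, Mrpl37, Mrpl40, Mrpl50, Mrpl55 and Mrps25 (9.23%, against 2.29% of all tested genes). The control calls of Mrpl16 and Mrpl55 were lost without the first control 0 h array (0.128 and 0.0629) or the second control 12 h array (0.0966 and 0.086). Another 13 of 65 (against 5.48% of all tested genes) were called higher in control cells only, 18 (27.7%, against 14.9%) lower in treated cells only, and 25 (38.5%, against 43.8%) in neither, while Mrpl9 and Mrps18b were called higher in treated cells only (3.08%, against 13.5%). A call in one condition and not in the other does not show that the conditions differ; the difference in response is the test for that. Mrpl50 was called at both later times, at -1.05 (SE 0.14, limma, adjusted p = 0.00051) at 6 h and -1.26 (SE 0.14, limma, adjusted p = 5.6e-05) at 12 h, after control arrays had gone to 10.26 and 10.37 and treated arrays from 9.90 and 9.80 down to 9.16 and 9.32.

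Mrpl11, whose bacterial counterpart forms part of the stalk base where elongation factors bind, also had a lower response. It went from 9.16 and 9.01 to 9.37 and 9.48 in control cells over 12 h and went from 9.35 and 9.25 to 8.46 and 8.64 in treated cells. The difference in response was -1.10 (SE 0.18, limma, adjusted p = 0.00061). Mrpl12, whose bacterial counterpart L7/L12 makes up the stalk itself, and which is also reported to bind the mitochondrial RNA polymerase, went from 11.58 and 11.56 to 11.87 and 11.77 in control and from 11.46 and 11.47 to 11.14 and 10.99 in treated cells, a difference in response of -0.65 (SE 0.17, limma, adjusted p = 0.013).

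**Figure D4:**
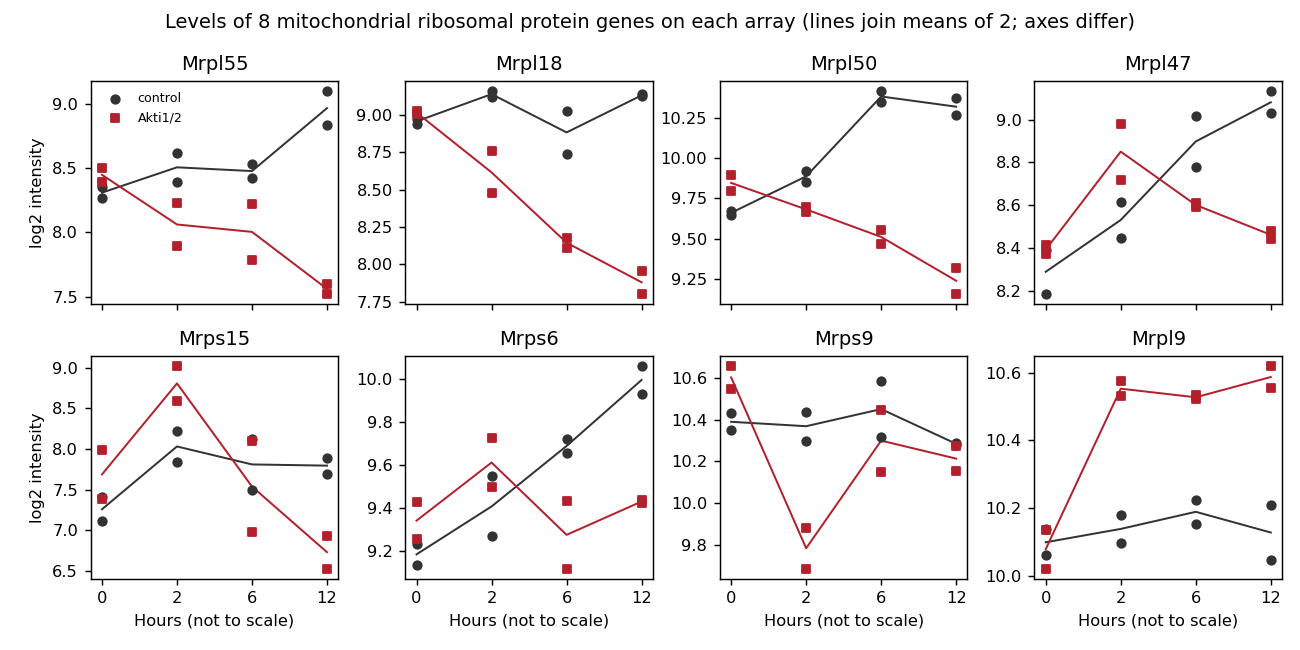
Log2 intensity of 8 members on each array against hours of stimulation (evenly spaced, not to scale; each panel has its own vertical axis). Black circles are control and red squares Akti1/2 arrays, 2 per group, and lines join their means; Mrpl55, Mrpl18 and Mrpl50 part steadily, Mrps15 and Mrps9 have their extreme values at 2 h with Akti1/2, and Mrpl9 steps up at 2 h with Akti1/2.

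One member was called in opposite directions early and late in treated cells. Mrps15, counterpart of bacterial S15, was at 7.99 and 7.38 in treated cells at 0 h, 9.02 and 8.60 at 2 h, 6.98 and 8.10 at 6 h, then 6.52 and 6.93 by 12 h. It was called higher at 2 h (1.12, SE 0.34, limma, adjusted p = 0.021) and lower at 12 h (-0.96, SE 0.34, limma, adjusted p = 0.037). In control cells it went from 7.11 and 7.41 to 7.83 and 8.23 at 2 h and 7.70 and 7.89 at 12 h. Its replicates were the farthest apart of any member, 1.12 at 6 h with Akti1/2, and 5 members, Mrpl30, Mrpl52, Mrps7, Mrps15 and Mrps35, differed by over 0.5 between those 2 arrays, against at most 2 members in any other group.

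The treated cells at 2 h held the highest group mean of 13 of 65 members and the lowest of 14 (21.5%), close to the 19.2% and 19.1% of all tested genes. The shares were farther from those of all genes at 12 h. Control cells at 12 h held the highest mean of 27 members (41.5%, against 15.6% of all tested genes), and treated cells at 12 h the lowest mean of 23 (35.4%, against 22.1%).

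Large and small subunit genes were compared through their changes, since levels of different probes are not on 1 scale. In control cells the median Mrpl change exceeded the median Mrps change by 0.073 at 2 h, 0.0087 at 6 h and 0.094 at 12 h. For treated against control cells, the Mrpl median minus the Mrps median was -0.0067 at 0 h, -0.0036 at 2 h, -0.12 at 6 h and 0.042 at 12 h. The same quantity taken on single arrays, the Mrpl minus the Mrps median relative to control cells at 0 h, varied between replicates with an SD of 0.028. The 6 h value went to 0.0023 when 1 array was left out and was -0.035 and -0.049 within the chips, and the 12 h value ranged from -0.055 to 0.042 with 1 array left out, so that no difference between the subunits in the effect of Akti1/2 held up beyond the spread. In control cells at 12 h the Mrpl excess stayed between 0.046 and 0.10 when any 1 array was left out. There 14 of 38 Mrpl and 5 of 27 Mrps genes were called higher, against 12.7% of all tested genes. The excess was not particular to control cells. Taken on single arrays at 12 h, it was 0.077 and 0.10 in control and 0.10 and 0.11 in treated cells. In treated cells at 0 h it was -0.0092 and -0.016.

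Within the subunits, both the members with a bacterial counterpart and those added in mitochondria held lower calls. For the difference in response at 12 h, 16.2% of all tested genes were called lower and 16.3% higher. Of the members, 23 of 42 with a bacterial counterpart and 10 of 23 without one were called lower, with medians of -0.57 and -0.45. With the subunit taken from the symbol, small-subunit members with a counterpart had 11 of 15 called lower (median -0.66) and those without 4 of 12 (median -0.32). These 12 include Mrps30 and Mrps18a, which lie in the large subunit and were not called, so the contrast is not one between small-subunit proteins alone. For large-subunit members the shares were 12 of 27 (median -0.39) and 6 of 11 (median -0.54), so the order of the medians was not the same in both subunits.

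The members that sit elsewhere than their symbol says, and subunits with other symbols, varied. Mrps30 and Mrps18a lie in the large subunit despite their names; Mrps30 rose in control cells from 11.04 and 10.96 to 11.24 and 11.39 at 12 h (0.32, SE 0.10, limma, adjusted p = 0.036), a call lost without the first (0.0865) or second (0.178) control 0 h array, the first (0.0524) or second (0.225) control 12 h array and in a fit of only the groups compared (0.0775). Mrps18a was not called, with 10.77 and 10.81 in control and 10.87 and 10.90 in treated cells at 12 h. Mrps18c, the closest relative of bacterial S18, had a difference in response of -0.30 at 12 h (SE 0.25, limma, adjusted p = 0.39). Mrps12, counterpart of the bacterial S12 that guards decoding accuracy, was at 10.43 and 10.77 in control and 10.12 and 10.06 in treated cells at 12 h, a gap of -0.51 (SE 0.14, limma, adjusted p = 0.011) that was lost without the second control (0.124) or the second treated (0.0582) 12 h array. The protein that the table names Mrp63, a large-subunit component, moved in the same direction as most members: 7.06 and 7.11 in control and 6.25 and 6.52 in treated cells at 12 h, with a difference in response of -0.90 (SE 0.18, limma, adjusted p = 0.0025).

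Dap3, a GTP-binding protein of the small subunit, did not follow them. It was lower at 12 h in both conditions, going from 11.09 and 11.03 to 10.56 and 10.48 in control cells and from 10.98 and 11.11 to 10.60 and 10.47 in treated cells. The control fall was -0.54 (SE 0.12, limma, adjusted p = 0.0047) and the difference in response 0.03 (SE 0.17, limma, adjusted p = 0.90). The differences in response at 12 h of Aurkaip1, Ict1, Ptcd3 and Chchd1 were 0.13, 0.0044, -0.22 and -0.41, and none was called. Of these genes only Chchd1 was called between treated and control cells at 12 h, lower with Akti1/2 (-0.31). That call was lost under 10 of 23 alternatives. Gadd45gip1 was not above background.

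**Figure D5:**
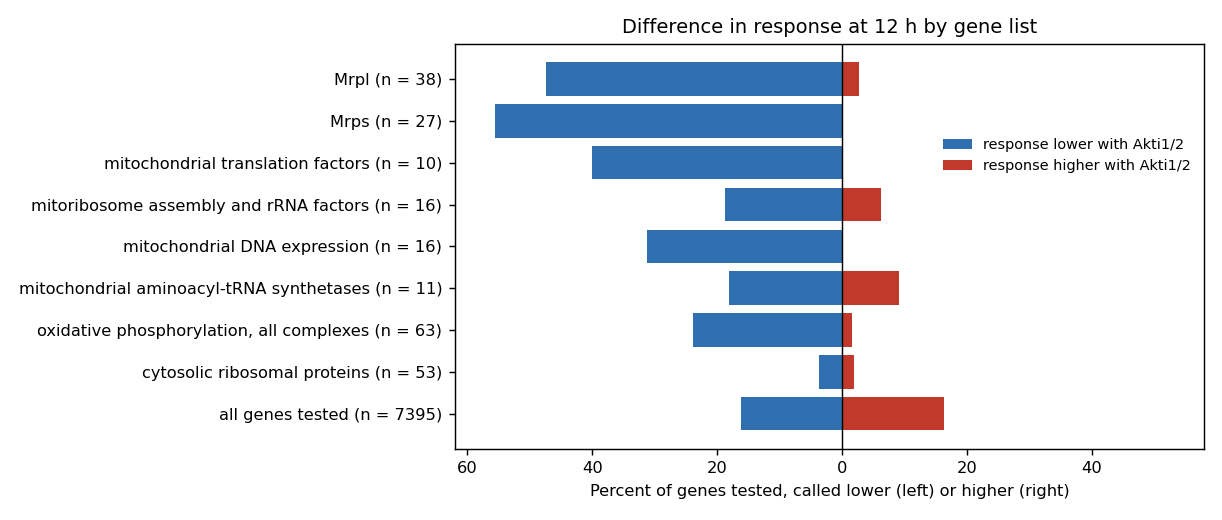
Percent of tested genes in each list whose difference in response at 12 h (change in treated cells less that in control cells) was called lower (blue, left) or higher (red, right) at adjusted p under 0.05; n is the number tested. The Mrpl and Mrps bars reach 47.4% and 55.6% on the left, cytosolic ribosomal proteins 3.77%, and all tested genes 16.2%.

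Other gene lists of mitochondrial expression held lower calls in differing shares. For the difference in response at 12 h, called lower for 16.2% and higher for 16.3% of all tested genes, 4 of 10 mitochondrial translation factors (40.0%) were called lower and none higher (median -0.49). Of 16 genes of mitochondrial DNA expression, 5 (31.2%) were lower and none higher (median -0.32). The shares of assembly and rRNA factors, with 3 of 16 (18.8%) lower and 1 higher (median -0.17), and of mitochondrial aminoacyl-tRNA synthetases, with 2 of 11 (18.2%) lower and 1 higher (median -0.035), were near that of all genes. Of 63 nuclear-encoded subunits of the oxidative phosphorylation complexes, 15 (23.8%) were lower and 1 higher (median -0.30). In control cells at 12 h 1 of those 63 (1.59%) was called higher and 1 lower, against 12.7% and 15.1% of all tested genes, and their median change was -0.016, where the members' was 0.21. The proteins of the cytosolic ribosome showed another picture: of 53 tested, 2 were lower and 1 higher for the difference in response at 12 h, with a median of 0.043, and in treated against control cells 3 (5.66%) were lower and 7 (13.2%) higher, against 24.8% and 24.2% of all tested genes (median 0.11). By its J5 score, the study reported that many cytosolic ribosomal protein genes rose less under Akt inhibition. Its measure and choice of genes differ from those used here, and the reason for the unlike results was not tested. The lists above are described by their counts and medians, and no test compared them with the members.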

How the data were processed

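Total RNA for the 16 arrays was labelled by the authors as biotinylated cRNA, hybridized to Illumina MouseRefSeq8 arrays and deposited as non-normalized probe intensity, 1 value per gene and array, with 832 control entries; the genome build and the scanner settings are not given in the sources used here. The 16 arrays lay on 2 chips, each with 1 array of every group. From these intensities, limma (version 3.58.1, R 4.3.3) neqc was run with the 798 negative controls and an offset of 16, followed by quantile normalization and log2. A gene counted as detected where under 0.01 of the negative controls were at least as bright, and 7395 genes detected on at least 2 arrays were tested. One linear model of all 8 groups (8 residual and 4.26 prior degrees of freedom) gave every contrast, with Benjamini-Hochberg adjustment over all genes tested and a threshold of 0.05; the study's methods used the J5 score instead, which is an alternative here. The fit was tested on simulated data. Replicate numbers were checked and showed no consistent pairing of the arrays, but they follow the chips in all groups except control cells at 12 h.

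The members and the lists were chosen with earlier results of these data known. Named genes were the 3 largest rises and falls on the log2 scale, among members called and changed alike on both chips, in each of 9 comparisons, plus members called against the majority and a fixed set (Mrpl12, Mrps12, Mrps30, the Mrps18 genes, Mrps36, which is not on the table, and subunits with other symbols). Precision is limited by 2 arrays per group. Sequences are from RefSeq (GRCm38.p6): 61 members matched by gene ID and 2 by symbol.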

Additional observations from a re-analysis of the deposited data

Results flagged for a closer look

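Each result here is a difference in response that passed the test: the log2 change since 0 h in treated cells less that in control cells, for named genes (limma, adjusted p under 0.05). At 2 h these were Mrpl16 (-0.78, adjusted p = 0.022) and Mrps9 (-0.80, adjusted p = 0.024). Leaving out 1 array ended the Mrpl16 call for the first control 0 h array (0.0921), the first or second treated 0 h array (0.0567 and 0.0745), the first control 2 h array (0.0783) and the first treated 2 h array (0.0557), and so did a fit of only the groups compared (0.0557). For Mrps9 it was either control 0 h array (0.0871 and 0.0568), either treated 0 h array (0.082 and 0.0532), the first control 2 h array (0.078) and the second treated 2 h array (0.0825).

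At 6 h Mrpl50 (-1.05), Mrpl20 (-1.01) and Mrpl11 (-0.97) responded less with Akti1/2. Mrpl50 and Mrpl11 were called under all alternatives run except the J5 score, which gives no value for a difference in response. The Mrpl20 value (adjusted p = 0.048) was called under 10 of 23 alternatives and reached 0.165 without the first control 0 h array. It was also lost without the first or second treated 0 h array (0.125 and 0.0823), the first control 6 h array (0.153), the first treated 6 h array (0.127), either control 12 h array (0.058) or either treated 12 h array (0.0625). The replicate block (0.0596), the chip as a block (0.0559), arrays scaled to the same mean (0.0698) and no filter on dim genes (0.0973) ended the call as well.

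At 12 h the large-subunit members Mrpl55 (-1.55), Mrpl18 (-1.31), Mrpl20 (-1.27), Mrpl50 (-1.26), Mrpl16 (-1.12), Mrpl11 (-1.10), Mrpl35 (-1.08), Mrpl47 (-0.72) and Mrpl12 (-0.65) and the large-subunit protein Mrp63 (-0.90) were called, and none of them was lost when 1 array was left out. Mrpl38 (-0.71) was lost without the second control or second treated 0 h array (0.054 and 0.0623), the first control 12 h array (0.0548) or the first treated 12 h array (0.0649).

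Among the small-subunit members at 12 h, Mrps15 (-1.50, adjusted p = 0.031) was lost without the first control or first treated 0 h array (0.0979 and 0.119), either control 12 h array (0.056 and 0.0888) or the first treated 12 h array (0.11), and with no filter on dim genes (0.0704). Mrps7 (-0.81) was lost without the second control 0 h array (0.114), either treated 0 h array (0.0761 and 0.0632), the second control 12 h array (0.097) or either treated 12 h array (0.0779 and 0.062), and with no filter on dim genes (0.0607). Mrps6 (-0.72) was lost without the second control 0 h (0.0504), first treated 0 h (0.0555) or second control 12 h array (0.0519). Mrps12 (-0.67) was lost without the first control 0 h array (0.0767), either treated 0 h array (0.0555 and 0.0646), the second control 12 h array (0.106) or either treated 12 h array (0.0509 and 0.0661). Mrpl9 (0.48, adjusted p = 0.020) was the member with a higher response, lost without the first control or first treated 0 h array (0.0733 and 0.0779), the second control 12 h array (0.0863) or the second treated 12 h array (0.0601).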

How the results depend on the processing

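None of the 65 called values of named genes changed sign under the alternatives run. Of the 47 values that were not called, 14 did so under at least 1 of them. Many named genes were picked because they were called and changed alike on both chips. The constant sign of the called values therefore follows in part from the choice and is no separate support for them. Of all 112 values of named genes, alternatives other than leaving out an array gave 781 values: 744 stayed on the same side of the threshold, 23 lost the call and 14 gained it; of 1792 values with 1 array left out, 1684 stayed, 100 lost and 8 gained. With the replicate number as a block, 2, 11 and 34 members were called for the difference in response at 2, 6 and 12 h. All tested genes gave 600, 1428 and 2384, and the block changed no member count by over 1.5 times. Arrays of the same replicate number correlated at a median of 0.017 in their deviations from group means (-0.30 to 0.26, 7 of 28 pairs over 0.1). The replicate number follows the chip in all groups but control cells at 12 h, so most of these arrays share a chip as well as a number. The block with the chip moved the control 2 h count from 1 to 2.

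Members called with 1 array left out ranged, at 2, 6 and 12 h, over 0 to 2, 3 to 17 and 7 to 23 in control cells and 10 to 27, 10 to 18 and 19 to 30 in treated cells against 0 h, over 4 to 18, 16 to 26 and 32 to 41 for treated against control cells (0 to 0 at 0 h) and over 0 to 4, 6 to 14 and 23 to 36 for the difference in response. Calls over all tested genes are not given for these fits, so the ranges do not compare the members with other genes. The J5 score at 20 on untransformed intensities called 0 members at 2, 6 and 12 h, against 0 h or between conditions. Its count over all tested genes is not given either. The 0 therefore does not show that the members differ from other genes under this score. The study states the cutoff of 20 for its 2 h list and chose a threshold for each time point, so its setting at 6 and 12 h may differ. Quantile normalization without background correction called 2 in control cells at 2 h, 22 for treated against control at 2 h and 9 and 20 for the difference in response at 2 and 6 h. Over all tested genes the calls in these comparisons went from 760, 2103, 622 and 1445 to 908, 2271, 806 and 1623. Genes detected on all arrays gave 2 for control 2 h and 5 for the 2 h difference in response, with 748 and 665 of all 5544 genes in that fit. A fit of only the groups compared gave 0 (control 2 h), 16 and 8 (treated 2 and 6 h), 3 and 9 (treated against control at 2 and 6 h) and 7 (6 h difference in response). Calls over all tested genes fell in that fit too. They went from 760 to 433 (control 2 h), from 2857 to 2314 and 2462 to 1479 (treated 2 and 6 h). Treated against control they went from 2103 to 1121 at 2 h and from 2776 to 1652 at 6 h, and the 6 h difference in response from 1445 to 1139. Scaling to the same mean gave 8 at control 6 h and 6 for the 6 h difference in response, where all tested genes gave 2105 and 1608. For the 6 h difference in response it moved the median of all tested genes to 0.12, while the members' median was -0.24. The share of higher calls among all tested genes went from 52.7% to 71.9% there.

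The Mrpl minus Mrps medians ranged with 1 array left out over 0.0062 to 0.11, 0.0087 to 0.059 and 0.046 to 0.10 in control cells at 2, 6 and 12 h, and over -0.055 to 0.012, -0.078 to -0.0036, -0.12 to 0.0023 and -0.055 to 0.042 for treated against control at 0, 2, 6 and 12 h. In control cells they were 0.028 by place in the ribosome and 0.021 on the second chip at 2 h, 0.063 and 0.057 on the first and second chip at 6 h, and 0.059 with no filter at 12 h. For treated against control they were 0.028 and -0.043 on the chips at 0 h and -0.11 by place at 2 h. At 6 h they were -0.062 without background correction, -0.068 scaled to the same mean, -0.056 with no filter, -0.081 by place, and -0.035 and -0.049 on the chips. At 12 h they were 0.080, 0.095, 0.082, 0.0076, -0.0083 and -0.052 under the same alternatives. The cause of these shifts was not tested.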
